A study of Mus musculus with 10 samples.

Results

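The 10 genes described here detect DNA or RNA in the cytosol, or pass on that signal: the sensors Cgas, Zbp1, Aim2, Ifih1 and Nlrp3, the exonuclease Trex1, the adaptors Tmem173 and Mavs, the kinase Tbk1 and the transcription factor Irf3. They were chosen by role, with earlier results of these data known. They were matched by symbol to rows of the deposited table of read counts per gene, which holds 22553 genes. All 10 were found and all 10 were among the 11990 genes with enough reads to be tested.

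Mammalian cells treat DNA in the cytosol as a sign of infection or of damage to the nucleus or mitochondria. The enzyme cGAS binds it and makes cyclic GMP-AMP, which activates the adaptor STING; STING recruits the kinase TBK1, and TBK1 activates IRF3, which turns on type I interferon and antiviral genes. Double-stranded RNA, including RNA transcribed from mitochondrial DNA (mtDNA), is detected by MDA5 through the adaptor MAVS on the mitochondrial surface. TFAM packages mtDNA, and in mouse fibroblasts a shortage of TFAM is known to let mtDNA reach the cytosol and activate cGAS and STING.

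RNA was sequenced from regulatory T cells (Treg), a CD4 T cell lineage set by Foxp3 that keeps immune responses in check, sorted as YFP+ cells from pooled spleen and lymph node of C57BL/6 female littermates. The knockout (KO) libraries came from Tfamfl/flFoxp3Yfp-Cre/+ mice and the control (Ctrl) libraries from Tfamfl/+Foxp3Yfp-Cre/+ mice, with 3 libraries each and cells of 2 to 3 mice in each library; no age is given in the sources used here. Ctrl cells therefore also carry the Cre and 1 floxed Tfam allele, so the comparison is of both Tfam copies open to deletion with 1 copy open to it, not with intact Tfam. Foxp3 lies on the X chromosome, so in these heterozygous females the Cre acts in those Treg that use the Yfp-Cre allele, and each mouse keeps Treg in which it does not act. The cells compared in KO mice thus came from hosts that still had Treg with functional TFAM.

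The KO libraries held 19087757 to 23794028 gene counts and the Ctrl libraries 21419772 to 27490253. Tfam stood at 14.4 to 16.5 CPM (counts scaled to library size and TMM factors) in KO and 25.9 to 42.4 CPM in Ctrl (adjusted p = 0.020, edgeR quasi-likelihood test), so no library contradicted its label. Foxp3 was at 783 to 873 CPM in KO and 688 to 854 CPM in Ctrl. Libraries stood apart in 3 respects. The first Ctrl library had the highest level of 19 of 23 tested interferon output genes, where it was highest for 11.1% of all tested genes. Both libraries numbered 2 held the most RNA of 17 myeloid markers, with a summed level of 630, 1404 and 545 CPM in KO replicates 1 to 3 and 522, 1014 and 582 CPM in Ctrl replicates 1 to 3. Summed dendritic cell markers (7 genes) ran from 18.9 to 64.9 CPM in KO, highest in replicate 2, and from 21.5 to 57.9 CPM in Ctrl, highest in replicate 1, and 7 B cell markers from 14.3 to 21.8 CPM in KO and 18.8 to 24.9 CPM in Ctrl. KO replicate 1 was the highest for 5 of 6 tested erythroid markers, whose summed level (7 genes) was 15.8, 8.33 and 9.18 CPM in KO replicates 1 to 3, against 6.61, 9.32 and 10.6 CPM in Ctrl replicates 1 to 3. The part of any of these cells in the values was not tested.

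With both Tfam alleles floxed instead of 1, no change in the mRNA of any of the 10 genes passed adjustment over all tested genes. By edgeR, 0 of 10 were called lower and 0 higher at an adjusted p under 0.05, where the shares over all tested genes were 1.39% lower and 0.100% higher. At an unadjusted p under 0.05, 1 of the 10 was lower (Ifih1) and 0 were higher, against 7.22% and 5.40% of all tested genes. With the replicate number as a block, 4 of the 10 passed that threshold in edgeR (Ifih1, Tmem173 and Zbp1 lower, Irf3 higher). In DESeq2 with the block 3 passed it (Ifih1, Irf3 and Tmem173). The shares of all tested genes at that threshold were not counted for these fits. Whether 4 or 3 of 10 is more than among all tested genes therefore cannot be said. Neither fit called any of the 10, where edgeR with the block called 4.39% of all tested genes lower and 1.97% higher. DESeq2 and limma-voom called 0 of 10 as well. The fitted log2 fold changes, KO over Ctrl, ran between -0.31 for Cgas and 0.14 for Aim2, with 6 below 0 and 4 above, a median of -0.053 and a median of -0.0045 over all tested genes. Because the libraries are bulk RNA, fewer cells that express a gene and less RNA in each cell cannot be told apart.

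**Figure D1:**
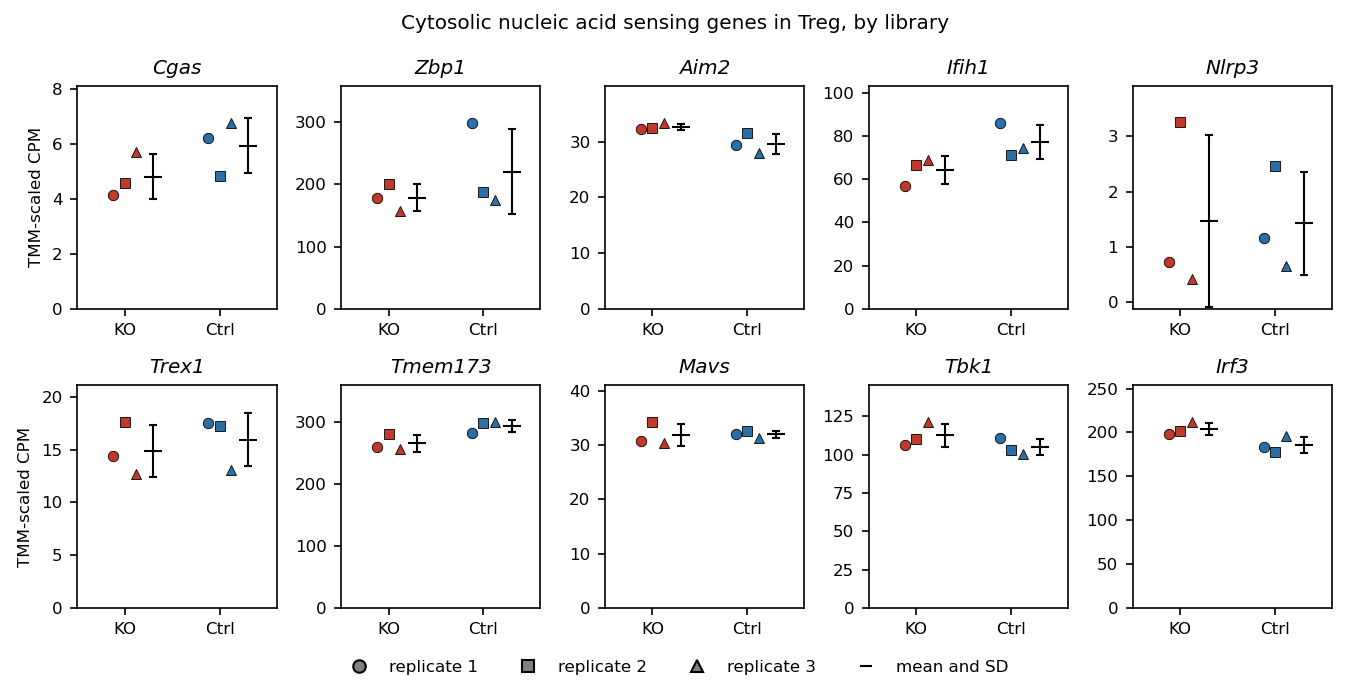
Level of each of the 10 genes in the 3 KO and 3 Ctrl libraries, in TMM-scaled CPM (vertical axes, each with its own scale); symbols mark the replicate number and bars the mean and SD. KO lies below Ctrl in every library for Ifih1 and Tmem173 and above it for Aim2 and Irf3, while the other 6 genes overlap.

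Cgas, the cytosolic DNA sensor (ENSMUSG00000032344), had 4.14, 4.58 and 5.72 CPM in KO replicates 1 to 3, against 6.22, 4.82 and 6.76 CPM in Ctrl replicates 1 to 3. The groups overlapped, since KO replicate 3 was above Ctrl replicate 2. Each library held between 94 and 185 Cgas reads. The estimate was coarse, with a log2 fold change of -0.31 ± 0.19 in edgeR (SE, adjusted p = 0.541). That is 80.7% of Ctrl with a 95% interval of 59.9 to 109%. Within same-numbered libraries the log2 difference was -0.59, -0.07 and -0.24.

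Zbp1 (ENSMUSG00000027514), a sensor of left-handed nucleic acid that recruits the necroptosis kinase RIPK3, had 178, 200.5 and 158 CPM in KO replicates 1 to 3, against 299, 187 and 175 CPM in Ctrl replicates 1 to 3. A single library, Ctrl replicate 1, stood well above the other 5, which lay between 158 and 200.5 CPM. With all libraries the log2 fold change was -0.30 ± 0.19 (adjusted p = 0.560), or 81.2% of Ctrl with an interval of 59.9 to 110.0%. Without Ctrl replicate 1 it was -0.0056 (adjusted p = 0.988). The within-pair differences were -0.75, 0.10 and -0.15.

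Aim2 (ENSMUSG00000037860), which binds cytosolic DNA and assembles an inflammasome, had 32.3, 32.4 and 33.3 CPM in KO replicates 1 to 3, against 29.3, 31.5 and 27.98 CPM in Ctrl replicates 1 to 3. All KO libraries were above all Ctrl libraries, but by little: the log2 fold change was 0.14 ± 0.074 (adjusted p = 0.465), or 111% of Ctrl with an interval of 98.3 to 124%. It was higher in KO in every pair, by 0.14, 0.04 and 0.25. Aim2 overlaps Cadm3 in RefSeq and Ifih1 overlaps the model Gm39839, so reads in the shared stretches could belong to either gene.

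Trex1 (ENSMUSG00000049734), the exonuclease that degrades cytosolic DNA and so limits cGAS, had 14.4, 17.6 and 12.7 CPM in KO replicates 1 to 3, against 17.5, 17.3 and 13.1 CPM in Ctrl replicates 1 to 3. The groups overlapped and the log2 fold change was -0.098 ± 0.16 (adjusted p = 0.837), or 93.4% of Ctrl with an interval of 73.0 to 119%; without KO replicate 3 it was 0.0035. Trex1 lies within the read-through gene Atrip-trex1 in RefSeq, so some of its reads could belong to that transcript.

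Ifih1 (ENSMUSG00000026896), which encodes the RNA sensor MDA5, had the smallest p of the 10. It had 57.04, 66.6 and 69.1 CPM in KO replicates 1 to 3, against 86.03, 71.2 and 74.6 CPM in Ctrl replicates 1 to 3. Every KO library was below every Ctrl library. The log2 fold change was -0.27 ± 0.098, or 83.1% of Ctrl with an unadjusted 95% interval of 71.1 to 97.04%. Its unadjusted p of 0.0247 was the 958th smallest of 11990, and adjustment over all genes gave 0.308. With the replicate number as a block the adjusted p was 0.0937. The differences within pairs were -0.59, -0.10 and -0.11, so the largest was in the first pair. Its Ctrl library was the highest of all libraries and its KO library the lowest. Without Ctrl replicate 1 the edgeR log2 fold change was -0.17 (adjusted p = 0.433), and without KO replicate 1 it was -0.18 (adjusted p = 0.721).

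The promoter of Ifih1 is shown because, of the 8 members with a promoter in the RefSeq table, it was the only gene with a match to an interferon-stimulated response element, the sequence bound by the factors that interferon activates. No promoter entry matched the symbols Zbp1 or Tmem173 (Sting1 in RefSeq), so these members were not searched. The letters searched were GAAA, any 2 bases, and GAAA again, on both strands. The window is chr2:62646206-62646505 of GRCm38.p6 on the minus strand, 250 bases before to 50 after the start, with the match in capitals at bases 33 to 42 after the start site.
Ifih1: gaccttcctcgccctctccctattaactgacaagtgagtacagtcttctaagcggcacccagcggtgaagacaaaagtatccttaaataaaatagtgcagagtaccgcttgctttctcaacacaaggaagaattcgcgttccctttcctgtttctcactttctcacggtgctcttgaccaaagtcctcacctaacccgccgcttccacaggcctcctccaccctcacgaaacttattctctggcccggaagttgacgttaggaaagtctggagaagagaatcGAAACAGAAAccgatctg
The same letters occur in 3.44% of all 32851 promoters in that table and in 11 of 18 promoters of the interferon output list. For comparison, the first match and its flanks in 30 bases follow for Isg15, Cxcl10 and Gbp3, genes of that list. The first matched base is 78, 213 and 45 bases before the start site. These promoters hold 3, 1 and 2 matches, and only the first of each is in capitals. In Isg15 and Gbp3 another match overlaps it and runs on into the lower-case bases.
Isg15: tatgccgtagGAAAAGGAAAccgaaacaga
Cxcl10: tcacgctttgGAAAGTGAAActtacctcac
Gbp3: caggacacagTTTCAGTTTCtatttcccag
These windows are chr4:156200877-156200906 (minus strand), chr5:92349083-92349112 (minus strand) and chr3:142559989-142560018 (plus strand) of GRCm38.p6. In Gbp3 the match in capitals is on the opposite strand to the gene. The match is a description of the letters and does not show that a factor binds there.

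Nlrp3 (ENSMUSG00000032691), the sensor of an inflammasome best known from myeloid cells, was close to the limit of what these libraries measure. It had 17, 67 and 8 reads, or 0.72, 3.26 and 0.42 CPM, in KO replicates 1 to 3, against 30, 54 and 18 reads, or 1.15, 2.46 and 0.66 CPM, in Ctrl replicates 1 to 3. Its highest level in either group was in the library numbered 2, the libraries with the most RNA of the myeloid markers; of the 16 tested markers, 15 were highest in KO replicate 2 and 1 in Ctrl replicate 2. Itgam, the marker below the filter, had at most 5 reads in a library. The log2 fold change of 0.063 ± 0.73 (adjusted p = 0.984) has an interval of -1.61 to 1.73 and fixes no direction: it was -1.27 without KO replicate 2, -0.64 without both libraries numbered 2 and -0.062 and -0.29 without Ctrl replicate 1 or 3. Without Ctrl replicate 2 it was 0.69, and without KO replicate 1 or 3 it was 0.40 and 0.49.

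**Figure D2:**
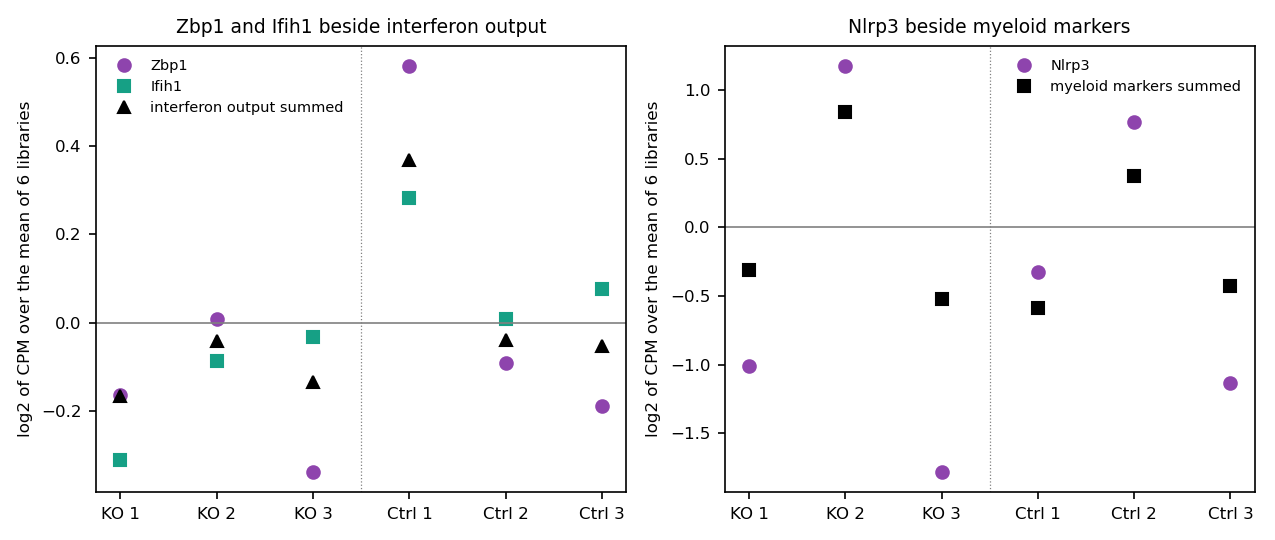
Log2 of the CPM in each library over the mean of the 6 libraries, for Zbp1 and Ifih1 with the summed interferon output genes (left) and for Nlrp3 with the summed myeloid markers (right). Ctrl replicate 1 holds the highest values on the left, and both libraries numbered 2 hold the highest on the right.

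Tmem173 (ENSMUSG00000024349), which encodes STING, had 259, 280.4 and 255 CPM in KO replicates 1 to 3, against 282, 298 and 299 CPM in Ctrl replicates 1 to 3. KO was lower in every library, by a narrow margin between KO replicate 2 and Ctrl replicate 1. The log2 fold change was -0.14 ± 0.065 (adjusted p = 0.412), or 90.5% of Ctrl with an interval of 81.6 to 100.3%. The within-pair differences were -0.12, -0.09 and -0.23.

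Mavs (ENSMUSG00000037523), the mitochondrial adaptor of the RNA sensors, had 30.9, 34.2 and 30.5 CPM in KO replicates 1 to 3, against 32.01, 32.7 and 31.3 CPM in Ctrl replicates 1 to 3. It was the flattest of the 10, at 99.5% of Ctrl with an interval of 88.3 to 112% (log2 fold change -0.0067 ± 0.076, adjusted p = 0.983). A value this near 0 has no stable sign: it was 0.00033 with DESeq2 size factors, 0.0058 and 0.0077 without Ctrl replicate 1 or 2, and 0.023 without KO replicate 1 and without KO replicate 3.

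Tbk1 (ENSMUSG00000020115), the kinase shared by the STING and MAVS branches, had 106, 110.2 and 121 CPM in KO replicates 1 to 3, against 111, 103 and 101 CPM in Ctrl replicates 1 to 3. The groups overlapped, with a log2 fold change of 0.10 ± 0.073 (adjusted p = 0.614), or 107% of Ctrl with an interval of 95.5 to 120.4%. Irf3 (ENSMUSG00000003184), the transcription factor that TBK1 activates, had 198, 202 and 211 CPM in KO replicates 1 to 3, against 184, 177 and 196 CPM in Ctrl replicates 1 to 3. All KO libraries were above all Ctrl libraries, at 109.7% of Ctrl with an interval of 99.0 to 122% (log2 fold change 0.13 ± 0.065, adjusted p = 0.443), and the pairs gave 0.11, 0.19 and 0.11. IRF3 is switched on by phosphorylation, so its mRNA does not report its activity.

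Counted over the 10 genes, 2 had every KO library below every Ctrl library (Ifih1 and Tmem173) and 2 had every KO library above (Aim2 and Irf3). Among all tested genes this held for 10.4% and 8.63%. None of the 4 passed the test, and none of the 10 was called in any of 14 alternative fits, whose smallest adjusted p for each gene lay between 0.0937 (Ifih1 with the replicate block) and 0.847 (Mavs).

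**Figure D3:**
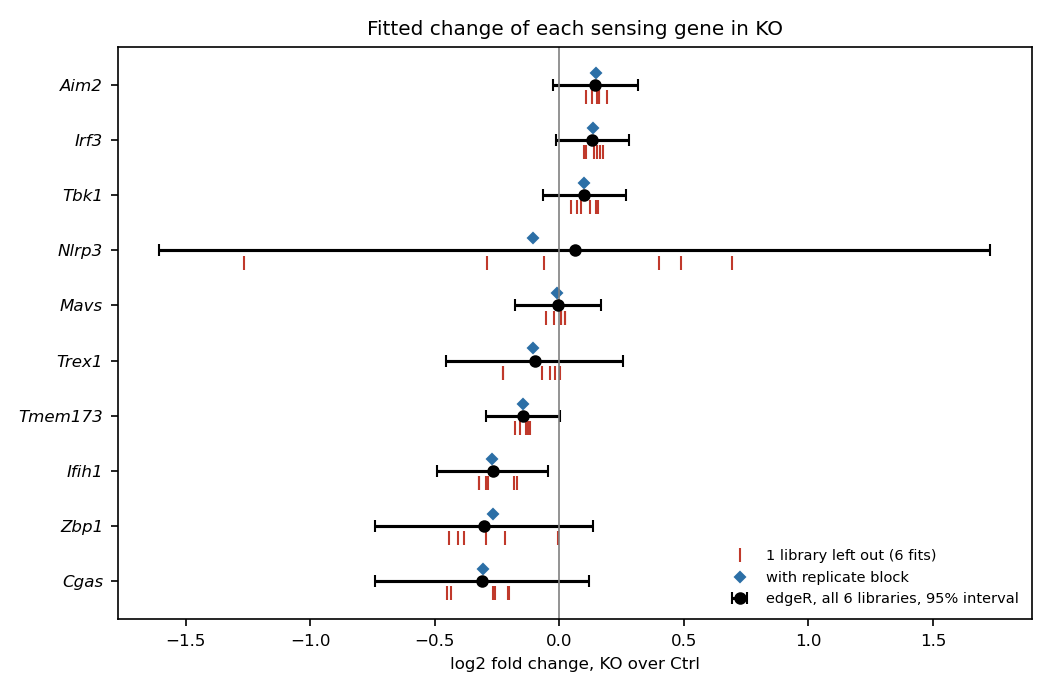
Log2 fold change, KO over Ctrl, of each of the 10 genes with its 95% interval (black), with the replicate block (blue) and with each library left out in turn (red). Intervals of all genes but Ifih1 include 0; Zbp1 comes close to 0 without Ctrl replicate 1, and Mavs, Nlrp3 and Trex1 change sign with single libraries left out.

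Other genes of these pathways were counted in lists. Of 26 tested genes for other DNA sensors and their cofactors, 0 were called by edgeR in either direction, 0 had an unadjusted p under 0.05, and the median log2 fold change was -0.0045. Dhx9, a helicase, stood at 432 ± 56.8 CPM in KO and 430 ± 50.2 CPM in Ctrl (SD, n = 3 each), and Ifi203, an interferon-inducible relative of Aim2, at 333 ± 31.2 CPM and 322 ± 31.97 CPM. Genes for STING traffic and turnover had 0 of 13 called (1 at an unadjusted p under 0.05; median -0.012), with Sec24c of the COPII coat at 0.14 ± 0.098 and the ER calcium sensor Stim1 at -0.012 ± 0.066. Enzymes that clear or edit nucleic acid, a list without Trex1, had 0 of 17 called, 0 at an unadjusted p under 0.05 and a median of -0.023. Among them the dNTP hydrolase Samhd1 was fitted at -0.077 ± 0.090 (log2 fold change) and the RNA editing enzyme Adar at -0.00073 ± 0.083.

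Other RNA sensors and effectors had 0 of 24 called (5 at an unadjusted p under 0.05, 4 of them lower) and a median of -0.11. Of the 24, 17 were fitted below 0, against 6140 of all 11990 tested genes. Zc3hav1, the antiviral zinc finger protein ZAP, was fitted at 0.015 ± 0.067 (log2 fold change) and the helicase Dhx15 at 0.037 ± 0.090. Nlrx1, a mitochondrial NOD-like receptor, was called lower (adjusted p = 0.0385) and Tarbp2, a Dicer partner, higher (0.0499) with the replicate block, a fit in which 4.39% of all tested genes passed as lower and 1.97% as higher. The first Ctrl library was the highest for 11 of the 24, and without it the median was -0.0038. KO replicate 1 was the lowest for 11 of the 24, where it was lowest for 1760 of all 11990 tested genes. Without KO replicate 1 the median was -0.047.

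Kinases and IRF factors around TBK1 had 0 of 22 called (4 at an unadjusted p under 0.05, 2 in each direction; median 0.0021), with the NF-kB inhibitor Tnfaip3 at -0.13 ± 0.31 and Nfkb1 at -0.034 ± 0.090. With the block, Ikbkb, which encodes the kinase IKK-beta, was called higher (adjusted p = 0.0208) and Irf5 and the ubiquitin ligase Rnf125 lower (0.00853 and 0.0289). That fit called 4.39% of all tested genes lower and 1.97% higher. Endosomal Toll-like receptors and their partners had 0 of 11 called (1 at an unadjusted p under 0.05; median -0.0034), with the chaperone Hsp90b1 at -0.031 ± 0.078 and Irak1 at 0.11 ± 0.060. Genes of the mitochondrial outer membrane pores and of the caspase cascade, through which mtDNA can leave mitochondria or its signal be silenced, had 0 of 12 called (2 at an unadjusted p under 0.05, both lower). Of these 12, 11 were fitted below 0, against 6140 of all 11990 tested genes, and the list median was -0.098. Vdac2 was fitted at -0.066 ± 0.10 (log2 fold change) and Bax at -0.094 ± 0.064.

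Across these 7 lists DESeq2 without the block called 1 gene lower and 1 higher among the kinases and IRFs. It called 1 lower among the pore and caspase genes and 0 in the other lists, where it called 261 lower and 72 higher over all genes. Limma-voom called 0 in all 7 lists, where it called 136 lower and 3 higher over all genes.

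In the inflammasome list 1 of 17 tested genes fell and 0 rose by edgeR, against 1.39% lower and 0.100% higher over the whole tested set, and the list median was -0.039. The count lower was 2 in DESeq2, and also 2 when edgeR kept genes of low count. Those fits called 261 and 198 genes lower over all genes. The gene was Naip2, which encodes an NLRC4 partner that detects bacterial secretion systems and not nucleic acid. Naip2 had 9.37, 10.7 and 9.92 CPM in KO replicates 1 to 3, against 16.2, 22.3 and 20.3 CPM in Ctrl replicates 1 to 3. Every KO library was well below every Ctrl library, a log2 fold change of -0.97 ± 0.13 (adjusted p = 0.0112). Without both libraries numbered 2 its adjusted p was 0.0748, and it was also not called when KO replicate 1 (0.0782) or KO replicate 3 (0.0584) was left out. Naip genes are related copies, so some reads may be split between Naip2 and Naip5. Naip5 had 5.63 ± 1.12 CPM in KO and 12.2 ± 3.15 CPM in Ctrl (SD, n = 3 each, edgeR adjusted p = 0.0547). With the block, Naip2, Naip5 and Pycard, the inflammasome adaptor ASC, were called lower, 3 of 17 against 4.39% of all tested genes. Of the 6 genes for cell death downstream of ZBP1, 0 were called by edgeR, DESeq2 or limma-voom (1 at an unadjusted p under 0.05; median -0.076). The caspase Casp8 was fitted at 0.087 ± 0.084 (log2 fold change) and the kinase Ripk1 at -0.088 ± 0.079. Mlkl, which breaches the membrane in necroptosis, had 1.03 ± 0.029 CPM in KO and 2.30 ± 0.32 CPM in Ctrl (SD, n = 3 each; adjusted p = 0.0506); the block brought it under the threshold (0.011).

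**Figure D4:**
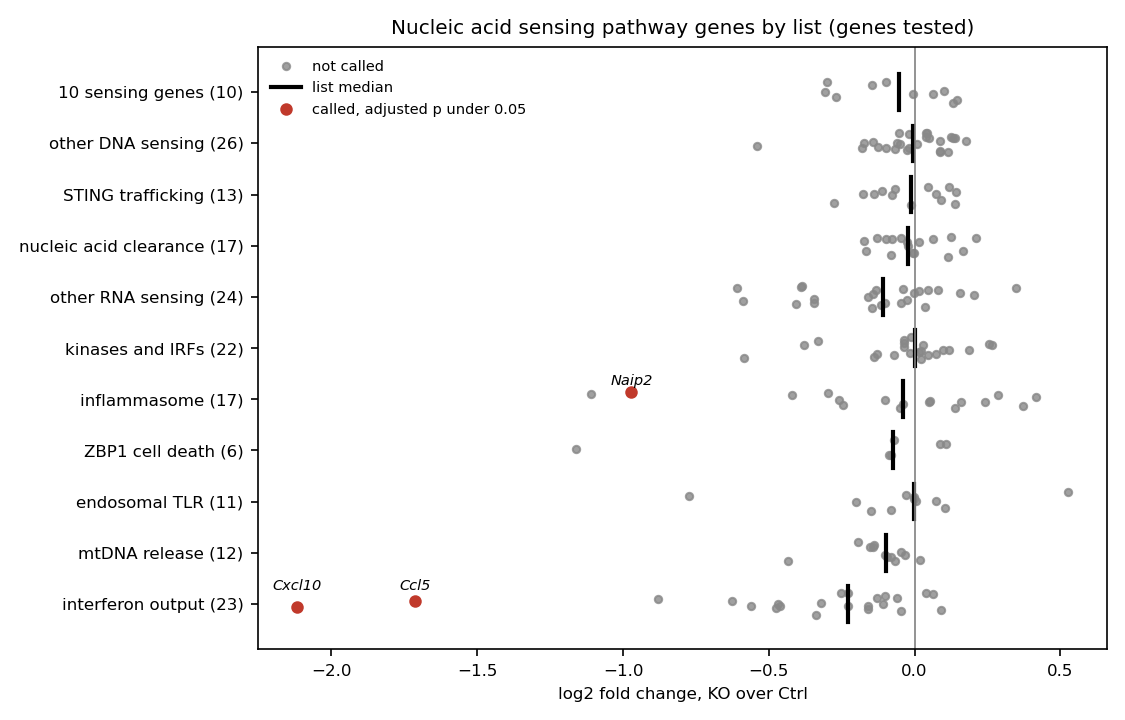
Log2 fold change, KO over Ctrl, of each tested gene (points) in the 10 sensing genes and in 10 lists of other pathway genes, with list medians (bars) and called genes in red. Medians lie between -0.23 for interferon output and 0.0021 for kinases and IRFs; Naip2, Cxcl10 and Ccl5 are the called genes.

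None of the interferon output genes was called higher, a call that 0.100% of all tested genes received. Ifnb1, Ifna2 and Ifna4 had 0 reads in all 6 libraries, which allows up to 0.126 to 0.157 CPM in a KO library and 0.109 to 0.14 CPM in a Ctrl library by counting error. Of the 23 tested interferon output genes, 2 fell, 0 rose and 20 were fitted below 0, with a median of -0.23; over all tested genes 1.39% were called lower. Ccl5 had 4.10, 3.31 and 2.41 CPM in KO replicates 1 to 3, against 9.22, 13.1 and 10.1 CPM in Ctrl replicates 1 to 3 (adjusted p = 0.00798). Cxcl10, which had 0.72, 1.07 and 0.52 CPM in KO replicates 1 to 3, against 4.50, 3.64 and 2.01 CPM in Ctrl replicates 1 to 3, kept its call in 7 of 14 alternative fits (adjusted p = 0.0356 with all libraries). It was not called without Ctrl replicate 1 or 2 (adjusted p = 0.102 and 0.118), without KO replicate 1, 2 or 3 (0.196, 0.0766 and 0.145), without both libraries numbered 2 (0.117) or by limma-voom (0.0799). Ccl5 was not called without both libraries numbered 2 (0.0601). Ccl5 and Cxcl10 both encode chemokines that attract T cells.

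With the block, Isg15, Mx1, Gbp3 and Ifi27l2a were called lower besides Ccl5 and Cxcl10, 6 of 23 in all, against 4.39% of all tested genes in that fit. The summed level of the interferon list was 2434, 2655 and 2488 CPM in KO replicates 1 to 3, against 3527, 2657 and 2631 CPM in Ctrl replicates 1 to 3. The first Ctrl library was thus the highest, and the other 5 lay between 2434 and 2657 CPM. Without that library the list median was -0.079 and 1 gene was called lower, Ccl5. Isg15, a ubiquitin-like modifier, was at 28.3, 34.96 and 25.2 CPM in KO replicates 1 to 3, against 61.5, 42.6 and 32.5 CPM in Ctrl replicates 1 to 3. It was highest in the first Ctrl library, but KO was lower in all 3 same-numbered pairs (adjusted p = 0.285 by edgeR and 0.0188 with the block).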

How the data were processed

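Poly(A) RNA libraries of sorted Treg, 3 KO and 3 Ctrl, each from pooled mice, were analysed; the ATAC-seq samples were not analysed here. The authors deposited 1 table of raw read counts per Ensembl gene, made with HTSeq per the labels. Per the submitters' processing notes, HISAT2, Cufflinks and DESeq2 were among the tools, and mm10 and mm9 among the builds. Tool versions, the annotation and whether counting used strand are details that the sources used here do not state, so reads from overlapping genes cannot be told apart. Symbols matched 22522 of 22553 gene IDs. The labels do not say what a replicate number marks, so p-values reflect only how these pools vary, which may be technical in part.

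Counts were tested in edgeR 4.0.16 (R 4.3.3) with filterByExpr (minimum count 10, minimum total 15), TMM scaling and the quasi-likelihood F test, KO over Ctrl, on all 11990 genes kept, with Benjamini-Hochberg adjustment and calls at an adjusted p under 0.05. Standard errors and 95% intervals come from the F statistic; intervals are not adjusted, and floors (3 counts) cover counting error only. The test was checked on simulated counts. Deviations from the group mean correlated at 0.30, 0.58 and 0.54 within same-numbered libraries and between -0.55 and 0.021 otherwise, so the numbers were taken as pairs and the replicate block was fitted as an alternative, with limma 3.58.1 and DESeq2 1.42.0 as other tools. No 2 libraries of a group agreed within sampling noise.

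All 10 members were named, with, for each list, its called genes or the 2 with the highest CPM; Naip5, Mlkl, Isg15 and the genes called only with the block were named with their values known, and 1 result is not reported here. The members and lists were chosen with earlier results of these data known. Promoter sequences are from RefSeq, GRCm38.p6.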

Additional observations from a re-analysis of the deposited data

How the results depend on the processing

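The counts of 0 members called lower and 0 called higher held in all 14 alternatives, and 7 of the 10 members kept their sign in all of them. Mavs, whose value is near 0, was at 0.00033 with DESeq2 size factors in edgeR, at 0.0010 in DESeq2 and between -0.051 and 0.023 with single libraries left out. Nlrp3 was at -0.23 in limma-voom, -0.10 with the replicate block in edgeR, -0.23 with the block in DESeq2, -0.64 without both libraries numbered 2 and between -1.27 and 0.69 with single libraries left out. Trex1 ranged from -0.23 to 0.0035 with single libraries left out. The median of the members ran from -0.20 to 0.013 over those 6 fits. The causes were not tested. Over all genes the edgeR counts of 167 lower and 12 higher became 261 and 72 in DESeq2, 526 and 236 with the replicate block in edgeR, 294 and 137 with the block in DESeq2, 54 and 0 without both libraries numbered 2, and 26 to 166 and 0 to 10 with single libraries left out; limma-voom called 3 higher. Of the pathway list counts, 31 of 280 moved, by more than 1.5 times or to or from 0. Most of the rest were 0 in both fits compared, so they say little about stability. For interferon output the count lower was 5 in DESeq2 and 6 with the block in edgeR, against 2. Nlrp3 and Cgas had the fewest reads of the 10 members. The alternative without both libraries numbered 2 was chosen from earlier results of these data and leaves 2 libraries a group.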

Other observations

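The letters of the interferon-stimulated response element (GAAA, any 2 bases, GAAA, on either strand) were found in 9 of 23 promoters of the other RNA sensing list, among them those of Ddx58 (RIG-I), Ifit1, Ifit3 and Oas3, and in 5 of 26 promoters of the other DNA sensing list, against 3.44% of all 32851 promoters. They were in 0 of 21 promoters of the inflammasome list and 0 of 29 of the kinase and IRF list. The letters of the gamma-activated site, TTCNNNGAA, were in 0 of the 10 promoters found for 8 of the members (none for Zbp1 or Tmem173). They were in 8.3% of all promoters. Oas3, an RNA-activated synthetase, had 79.6, 88.8 and 81.6 CPM in KO replicates 1 to 3, against 153, 91.2 and 82.7 CPM in Ctrl replicates 1 to 3, and so was high in the first Ctrl library alone (log2 fold change -0.39 ± 0.21, adjusted p = 0.480). Genes may have more than 1 promoter in that table, and windows can overlap between neighbouring genes.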
